A study of Oryza sativa with 4 samples.

Results

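OsMADS14, OsMADS18 and OsMADS56 are the rice MADS-box genes that the authors' gene table places beside a region called in every OsMADS2 peak list. They are 3 of the 2589 genes in that table and were chosen by their identifiers (Os03g0752800, Os07g0605200 and Os10g0536100). Every peak in each gene or within 4000 bp of it was then taken from the 3 lists. The presence of peaks in all 3 lists therefore chose the genes and is given below as a description, without a test. Chromatin immunoprecipitation with sequencing (ChIP-seq) had been carried out on wild-type TP309 rice panicles of 0.3 to 2 cm, about 200 mg of tissue. The OsMADS2 group is 2 libraries made with an affinity-purified anti-OsMADS2 antibody (IP5 and IP6), and the IgG mock group is 2 libraries made with rabbit IgG (mock 5 and mock 6). All 4 libraries share genotype, tissue, 1% formaldehyde fixation and cutting by micrococcal nuclease. Whole young panicles were used, so a signal cannot be assigned to a floral organ or cell type.

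MADS-domain proteins bind DNA as dimers, usually at CArG boxes, and assemble into larger complexes that set meristem and floral organ identity. OsMADS2 is a PISTILLATA-like, B-class member of the family that acts with the APETALA3-like protein OsMADS16 in lodicules and stamens. OsMADS14 and OsMADS18 belong to the APETALA1/FRUITFULL-like group, which acts in the change of the shoot meristem to an inflorescence meristem, and OsMADS14 is switched on downstream of the rice florigen. OsMADS56 belongs to the SOC1-like group and acts on flowering time under long days, where its close relative OsMADS50 promotes flowering.

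Each gene had 1 merged region, and each of those regions lay at the 5′ end of its gene. The OsMADS14 gene lies on the minus strand of chromosome 3 (31031753 to 31041563, 9811 bp), and its region (31041417 to 31042057, 641 bp) reached from 494 bp upstream of the gene start to 146 bp inside the gene. OsMADS18 lies on the plus strand of chromosome 7 (24788476 to 24793679, 5204 bp). Its region (24787931 to 24788428, 498 bp) ended 47 bp before the gene start and reached 545 bp upstream. OsMADS56 lies on the plus strand of chromosome 10 (20863187 to 20873635, 10449 bp), and its region (20862956 to 20864122, 1167 bp) reached from 231 bp upstream to 935 bp into the gene. Most of the OsMADS56 region thus lay in transcribed sequence, most of the OsMADS14 region lay upstream, and all of the OsMADS18 region did. Coordinates are printed as they stand in the authors' table. The sources used here name no genome build, and exons and introns were not analysed here.

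A merged region overlapped the gene start in 2 of the 3 genes (OsMADS14 and OsMADS56), against 24.1% of all 2862 region-gene pairs and 38.8% of the 539 pairs whose region has a single gene. Each of the 3 regions was assigned to a single gene, as were 37.4% of the 1442 regions in the table, whose median was 2 genes. The genes were long. OsMADS14 was longer than 98.3% of the genes in the table and OsMADS56 longer than 98.7%, while OsMADS18 was longer than 84.3%, against a median of 2655 bp. The OsMADS56 region was wider than 88.3% of the regions, OsMADS14 than 59.2% and OsMADS18 than 42.6%. Shares over 3 genes were not tested.

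**Figure D1:**
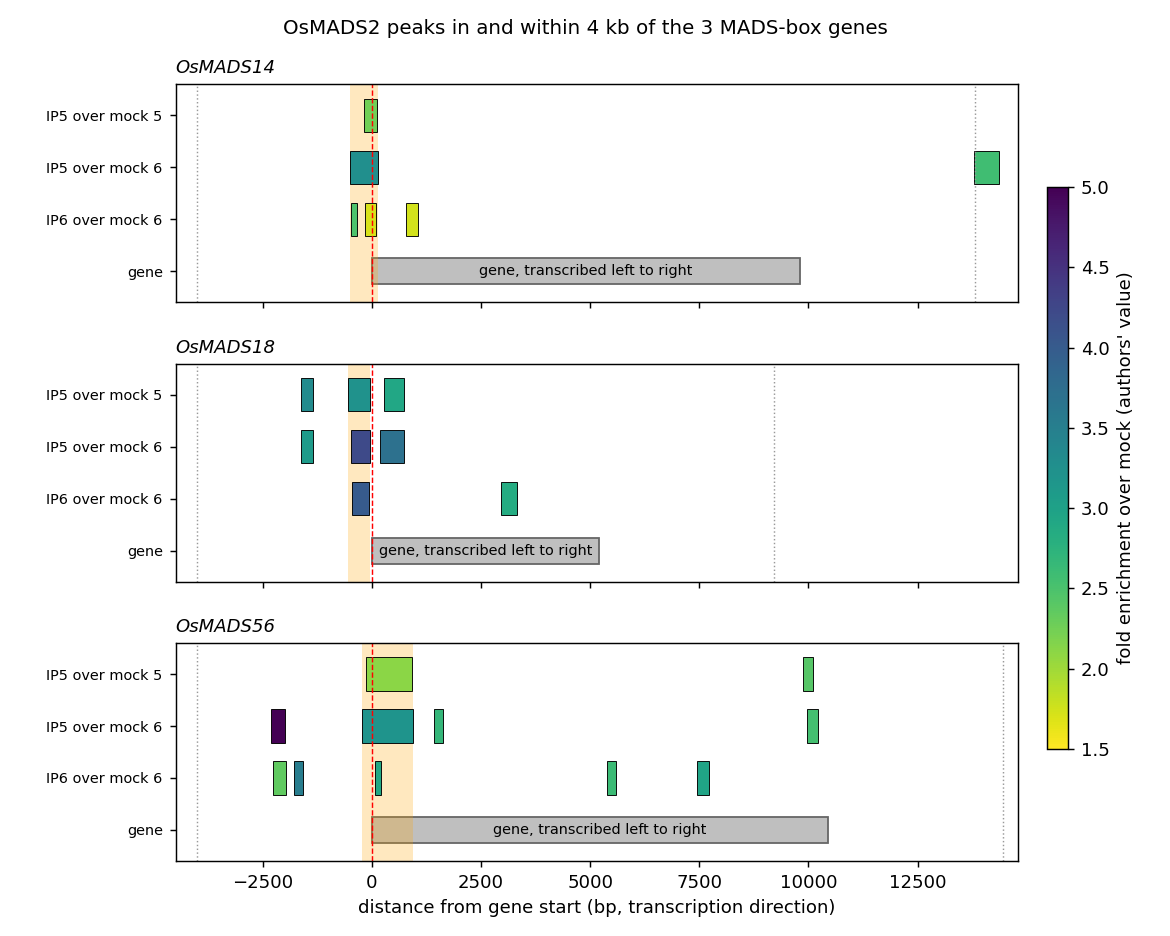
Peaks of the 3 lists in and within 4000 bp of each gene, drawn by distance from the gene start in the direction of transcription (bp); colour gives the authors' fold enrichment, orange the merged region, the red line the gene start and dotted lines the 4000 bp limits. A peak of each list spans the gene start of OsMADS14, in IP6 the weaker peak with a fold of 1.71. The stronger IP6 peak there, a fold of 2.47, lies upstream of the start. Peaks of all 3 lists lie just before the gene start of OsMADS18. At OsMADS56 both IP5 peaks span the gene start and the IP6 peak lies 70 bp inside the gene. The darkest peak, a fold of 5.00 upstream of OsMADS56, has no counterpart in IP5 over mock 5.

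OsMADS18 had the strongest of the 3 regions in every list. Its fold over mock, as given by the authors' peak caller for single library pairs, was 3.22 in IP5 over mock 5 (q = 8.45e-09), 4.22 in IP5 over mock 6 (q = 2.11e-12) and 4.00 in IP6 over mock 6 (q = 8.96e-12). All folds and q-values here are the authors' own and carry no replicate error. In IP6 over mock 6 the OsMADS18 region stood 256th of 1442 regions, above 82.2% of them. In IP5 over mock 5 it was near the middle, above 47.5%, and in IP5 over mock 6 above 66.4%. The 3 peaks were nearly in register. The IP5 over mock 5 peak ran from 545 to 49 bp upstream of the gene start, the IP5 over mock 6 peak from 487 to 48 bp and the IP6 peak from 464 to 62 bp. The whole IP6 peak (403 bp) lay within the IP5 over mock 5 peak and covered 81.1% of it. OsMADS18 is the one gene of the 3 whose region held a fold of at least 3 in every list, which 31.4% of all regions did.

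The OsMADS56 region had the lowest fold of the 3 regions in both IP5 lists. Its folds were 2.11 in IP5 over mock 5 (q = 3.28e-04), 3.19 in IP5 over mock 6 (q = 7.97e-09) and 2.90 in IP6 over mock 6 (q = 2.65e-06). Only 3.33% of the regions were lower in IP5 over mock 5, against 39.6% in IP6 over mock 6 and 23.0% in IP5 over mock 6. The peaks differed in shape between libraries. IP5 gave a broad peak over mock 5, 1074 bp wide, from 145 bp upstream to 928 bp into the gene. IP6 gave a narrow one of 132 bp that lay 70 to 201 bp inside the gene and did not touch the gene start. That IP6 peak lay wholly within the IP5 peak but covered 12.3% of it.

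At OsMADS14 the replicates met less directly. Its highest folds were 2.25 in IP5 over mock 5 (q = 2.04e-05), 3.27 in IP5 over mock 6 (q = 3.41e-10) and 2.47 in IP6 over mock 6 (q = 1.04e-04). These were above 8.81%, 26.1% and 18.2% of the regions. The IP5 over mock 5 peak spanned the gene start, from 191 bp upstream to 120 bp inside. The IP6 peak of 2.47 lay 340 to 471 bp upstream, with 148 bases between the peaks. A second IP6 peak, from 162 bp upstream to 97 bp inside, did overlap the IP5 over mock 5 peak and covered 83.3% of it, but its fold was 1.71 (q = 0.0231), above 0.396% of the IP6 list. Regions with 2 or more IP6 peaks made up 9.50% of the table.

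Among peaks with a fold of at least 2, the OsMADS14 region therefore joins its replicates only through the 641 bp peak of IP5 over mock 6. The ends of that peak are the ends of the region in the authors' table. The authors also deposited a sheet of the peaks shared by the lists, in which the smallest fold of every list is 2.00, and it does not hold the OsMADS14 peak of IP5 over mock 5. The same holds for 107 of the 1442 regions (7.42%): none of their IP5 over mock 5 peaks is in that sheet. In the same 107 regions no IP5 over mock 5 peak with a fold of at least 2 overlapped an IP6 over mock 6 peak of that size. With all deposited peaks counted, the peaks of these calls, which share no library, overlapped each other at all 3 MADS-box genes, against 93.0% of the regions. With a fold of at least 2 they did so at OsMADS18 and OsMADS56 alone, against 92.6%, and with a q below 0.01 at the same pair of genes, against 90.2%. With a fold of at least 3 they did so at OsMADS18 alone, against 32.9%. When at least 50% of both peaks had to overlap, OsMADS14 (through its IP6 peak of 1.71) and OsMADS18 met the rule and OsMADS56 did not, against 48.0% of the regions.

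**Figure D2:**
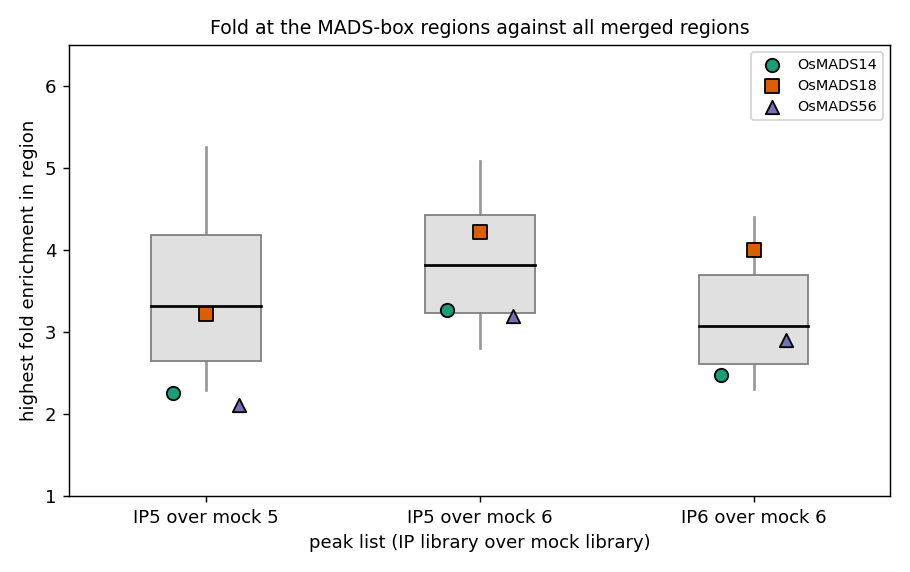
Highest fold enrichment over mock in each merged region (vertical axis, authors' value) by peak list, with 1 symbol for each MADS-box gene; boxes give the quartiles and median of all 1442 regions and grey lines the range from percentile 10 to 90. OsMADS18 lies near or above the median in each list, and OsMADS14 and OsMADS56 lie below it in each.

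At these genes the folds of IP5 over the 2 mock libraries differed in 1 direction. The same IP5 library had a higher fold over mock 6 than over mock 5 at OsMADS14 (3.27 against 2.25), OsMADS18 (4.22 against 3.22) and OsMADS56 (3.19 against 2.11). This was the case at 61.7% of all regions. IP6 over mock 6 also exceeded IP5 over mock 5 at each of the 3 genes, which was so at 42.9% of the regions. With both libraries over mock 6, IP5 had the higher fold at each gene, as it had at 76.4% of the regions. A fold is made within its own library pair, so these are values side by side and not a measured change. Uniquely mapped reads numbered 9142837 in IP5, 15934402 in IP6, 13248694 in mock 5 and 16742118 in mock 6. The part of depth and of the mock library in these differences was not tested.

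**Figure D3:**
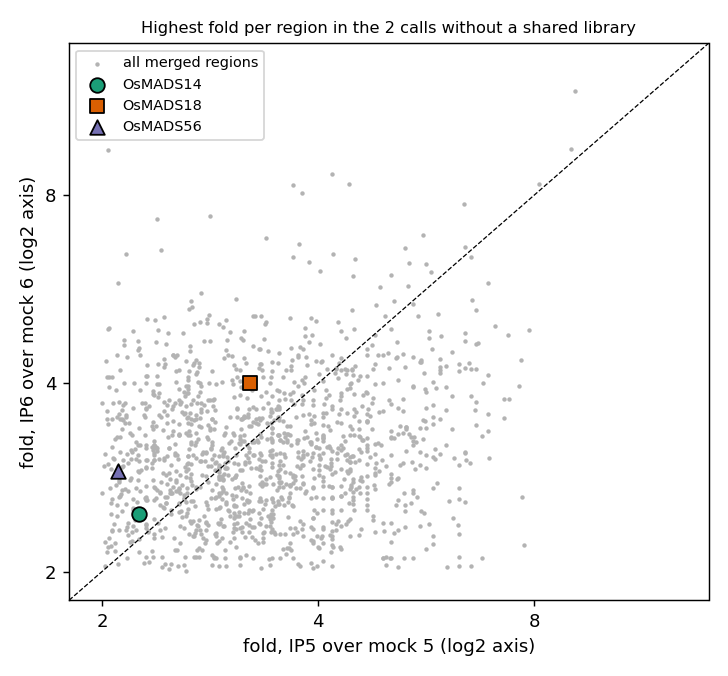
Highest fold per merged region in IP5 over mock 5 (horizontal) and IP6 over mock 6 (vertical), both on log2 axes, for all 1442 regions (grey) and the MADS-box genes (coloured); the dashed line marks equal folds. All 3 genes lie above the line, OsMADS18 at 3.22 and 4.00, OsMADS56 at 2.11 and 2.90 and OsMADS14 at 2.25 and 2.47.

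Around the merged regions, the genes differed in how many further peaks they had. In all, 25 peaks lay in the genes or within 4000 bp, 6 at OsMADS14, 8 at OsMADS18 and 11 at OsMADS56. Merged by overlap they formed 14 loci, of which 3 had peaks of all 3 lists, 4 had peaks of 2 lists and 7 of a single list. The choice of genes fixes a locus with all 3 lists at each gene. Loci were not counted at the other genes of the table, so these counts cannot be called particular to the MADS-box genes.

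Beside the other genes of the table, OsMADS14 had few peaks in IP5 over mock 5 (1, where the median was 2) and in IP5 over mock 6 (2, median 3), and 3 in IP6 over mock 6 (median 2). OsMADS18 had 3, 3 and 2 in the same order. OsMADS56 had 2 peaks in IP5 over mock 5, more than 33.8% of the genes, 4 in IP5 over mock 6, more than 61.0%, and 5 in IP6 over mock 6, more than 93.0%. Longer genes offer more room for peaks, and no correction for length was made. A locus upstream of OsMADS56 held the highest fold seen near any of the 3 genes. It had 5.00 in IP5 over mock 6 (q = 1.73e-19), 2319 to 1991 bp upstream of the gene start, above 99.2% of that list. IP6 over mock 6 had 2.36 there (q = 2.91e-04), from 2277 to 1964 bp upstream, while IP5 over mock 5 had no peak. Both calls at this locus use mock 6 as the control, and the part of that library was not tested. A further IP6 peak of 3.53 (q = 4.38e-07) lay 1794 to 1580 bp upstream of OsMADS56, without an IP5 counterpart. Inside the gene IP6 had peaks of 2.62 and 2.96, from 5394 and 7448 bp after the start. IP5 over mock 6 had one of 2.69 from 1418 bp. Close to the 3′ end of OsMADS56 both IP5 lists had a peak, 2.42 over mock 5 and 2.54 over mock 6, which IP6 lacked.

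OsMADS18 carried a pair of loci on either side of its region, called in IP5 over both mocks and not in the shorter IP6 list. The first lay 1636 to 1349 bp upstream, with 3.32 over mock 5 and 3.09 over mock 6. The second began 180 bp inside the gene over mock 6 (3.71) and 277 bp inside over mock 5 (2.91), and ended 743 bp after the start in each. In IP5 over mock 5 the upstream peak (3.32) was slightly higher than the peak of the merged region (3.22). IP6 alone had a peak of 2.85 (q = 3.54e-04) further into the gene, from 2950 to 3335 bp after the start. OsMADS14 had few peaks outside its region. IP6 had one of 1.73 from 780 bp inside the gene, and IP5 over mock 6 had one of 2.58 that lay 3982 bp beyond the 3′ end. The latter is just inside the 4000 bp limit, and the next peak outward was 6946 bp away (2.86, IP5 over mock 6). The nearest peaks outside the limit stood 6126 bp from OsMADS18 (3.26, IP5 over mock 6) and 4771 bp from OsMADS56 (3.19, IP6 over mock 6).

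Other rice MADS-box genes were looked up in the gene table. Of 29 rice MADS-box genes listed from general knowledge, 3 were in the gene table (10.3%, exact Clopper-Pearson 95% interval 2.19 to 27.4), namely the genes described here. The list holds these 3 genes, which were chosen from the gene table, so their matches were fixed in advance. It need not cover the whole family. The share is a description, and no comparison of the family with genes in general is drawn from it. The 26 without a row, as most genes are, included the floral organ genes OsMADS3, OsMADS4, OsMADS16 and OsMADS58, the E-class genes OsMADS1, OsMADS7 and OsMADS8, the other APETALA1/FRUITFULL-like genes OsMADS15 and OsMADS20, and OsMADS50. Across the table, 2589 genes correspond to 8.80% of the 29427 protein-coding genes of a RefSeq annotation (assembly ASM3414082v1), which is another annotation and gives an approximate background. Identifiers were recalled, and a wrong one would count as absent. A search of the table's symbols for MADS found the same 3 genes, but it cannot find a gene that has no symbol there. The symbols for OsMADS18 also hold the name OsMADS2, as does its RefSeq entry, and that entry is distinct from the one for the PISTILLATA-like gene. In RefSeq the protein-coding gene next to OsMADS14, on the side of higher coordinates, is OsMADS34, a SEPALLATA-like gene known for its part in panicle branching and spikelet meristems. OsMADS14 is on the minus strand, so that side is upstream of its start. OsMADS34 had no row in the gene table.

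The regions whose 3 folds came closest to each member were found by the distance between log2 folds over the 3 lists, which share libraries. For OsMADS14 they were those of Os04g0625000 (2.22, 3.39 and 2.42, in the order IP5 over mock 5, IP5 over mock 6, IP6 over mock 6) and Os08g0478100 (2.21, 3.30 and 2.37). For OsMADS18 they were those of Os05g0583075 (3.18, 4.22 and 3.79) and OsPRMT6a (Os10g0489100), named as a protein arginine methyltransferase gene (3.43, 4.06 and 4.00). For OsMADS56 they were those of Os08g0162066 (2.06, 3.14 and 2.92) and Os10g0147900 (2.13, 3.32 and 2.94). Distances were 0.04 to 0.11, where the median over all regions was 0.71 to 0.84. These regions were picked as the closest, so distances below the median follow from the choice. Only the nearest gene was taken for each region. Of the 6, only Os10g0489100 has a symbol in the table, so symbols cannot show whether the others are MADS-box genes. None of the 6 identifiers is among the listed MADS-box genes.

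In the authors' deposited table of 77 gene ontology terms, OsMADS14 and OsMADS18 were each listed under 6 terms and OsMADS56 under 5. In the authors' deposited table the members split over the developmental terms. Inflorescence development (49 of 372 genes, false discovery rate 0.00512 in the authors' deposited table) lists OsMADS14 and OsMADS56 but not OsMADS18. Flower development (15 of 88, 0.015 in the authors' deposited table) lists OsMADS14 and OsMADS18 but not OsMADS56. OsMADS14 alone stands under both in the authors' deposited table. All 3 are listed in the authors' deposited table under transcription (34 of 208 genes, 5.53e-04), transcription factor activity (73 of 645, 0.0271), nucleus (256 of 2529, 0.0195) and DNA-dependent regulation of transcription (68 of 611, 0.0441). OsMADS18 has 1 further term in the authors' deposited table, regulation of transcription (14 of 80, 0.015). A gene's terms come from its annotation, and its listing adds nothing on how strongly it was called.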

How the data were processed

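The authors deposited total, mapped and unique read counts for each library. The authors deposited 3 peak lists, each of 1 IP over 1 mock library without pooling, with fold enrichment as a ratio over mock and −log10 of p and q per peak. MACS2, deepTools, SAMtools, Bowtie2 and fastp appear in the submitters' processing notes, and the sources used here give no versions, settings or genome build. Per the file headers, overlapping peaks were merged and assigned to nearby genes, with the distance in bp. The authors deposited a −log10 false discovery rate for each ontology term.

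Peaks were joined to genes by the coordinates in the gene table, with overlap of 1 bp or more. A region's fold in a list is its highest peak. Shares over all regions are descriptions. The lists give values per peak call and not per library, and the members were chosen on them, so no replicate test was made. Overlap counting was tested on simulated data. Named genes were the 3 members, listed MADS-box genes found in the table (absent relatives were named afterwards), the 2 regions of closest folds per member and the ontology terms listing a member. Members and lists were chosen with earlier results of these data known. Identifiers of the 29 listed genes were recalled, and 27 of their names occur in RefSeq, which holds no such identifiers. Promoter and protein sequences were not used here. Values were computed with pandas 2.3.3, numpy 2.4.6 and scipy 1.17.1 under Python 3.11.15 and drawn with matplotlib 3.10.9.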

Additional observations from a re-analysis of the deposited data

How the results depend on the processing

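No paired analysis was possible because the deposited peak lists hold no value per library, and the result comes from no test. All 3 genes kept a locus with peaks of all 3 lists at a q below 0.01, within 2000 bp, and, chosen after seeing the data, at a fold of at least 2. Leaving out a replicate number, an IP library or mock 5 gave 3 to 3 genes, and so did leaving out IP5 over mock 6, also chosen after seeing the data. For the left-out libraries the choice of genes fixes that count, so it is no sign of stability. With a fold of at least 3, or with overlap of 50% of both peaks, 1 gene was left, OsMADS18. The IP5 over mock 5 peak directly overlapped an IP6 peak at 2 genes at q below 0.01, at 50% overlap, and at a fold of at least 2 (chosen after seeing the data), and at 1 with a fold of at least 3. Fewer peaks, or pairs of peaks, meet these stricter limits by construction. With IP6 over mock 6 peaks alone 1 region covered its gene start, that of OsMADS14 through its peak of 1.71, against 2 with the merged regions. With mock 6 in place of mock 5 the IP5 folds were 3.27, 4.22 and 3.19 for OsMADS14, OsMADS18 and OsMADS56. Weighted by peak width, the IP6 fold of OsMADS14 was 1.97. With all peaks within 4000 bp counted, OsMADS18 had 3.32 in IP5 over mock 5, and OsMADS56 had 2.42, 5.00 and 3.53 in the 3 lists. The planned searches of promoter and protein sequences were not run. The IP5 library, with 9142837 unique reads, stands behind 2 of the 3 lists, and the part of depth in the folds was not tested.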

Other observations

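The next merged region after OsMADS18 lay 6687 bp beyond its 3′ end (chromosome 7, 24800367 to 24800901) and covered the whole of Os07g0605275, a gene of 349 bp. The IP5 folds were 7.27 over mock 5 and 5.85 over mock 6, and the IP6 fold was 3.78. In IP5 they exceeded those of the OsMADS18 region, and in IP6 the value was slightly below. It was not assigned to OsMADS18, since it lies beyond the 4000 bp limit.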
